A study of Mus musculus with 20 samples.

Results

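The AP-1 transcription factors were followed as 10 genes, Fos, Fosb, Fosl1, Fosl2, Jun, Junb, Jund, Atf3, Batf and Maff, chosen by name as the FOS and JUN families plus 3 dimer partners from the ATF, BATF and small MAF families. They are 10 of 21963 gene entries in the count table, and all 10 were among the 11707 genes with enough counts to be tested. Gene-level counts came from RNA-seq of bone marrow-derived macrophages (BMDMs), macrophages grown in culture from mouse marrow, in 20 libraries from 5 groups. The comparisons asked which transcripts depend on cytosolic Ca2+ and on its uptake into mitochondria when macrophages meet zymosan, a fungal cell wall glucan that engages TLR2 and dectin-1.

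AP-1 is a family of basic leucine zipper proteins that bind DNA only as dimers. JUN proteins pair with themselves or with FOS proteins, while BATF and MAFF lack a transactivation domain and ATF3 often represses. In macrophages the family acts downstream of MAP kinases and by Ca2+-dependent enzymes, and FOS and JUN genes are classical immediate-early genes, switched on without new protein synthesis.

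The mice were 15–25 weeks old. The untreated WT group had 4 libraries, the WT group given zymosan for 3 h at 2 particles per cell had 5, and the WT group loaded with 10 µM BAPTA-AM, a cell-permeable Ca2+ chelator, before the same zymosan exposure had 4. The Mcu-/- groups, abbreviated KO, had 4 untreated libraries and 3 with zymosan for 3 h. Mcu encodes the pore of the mitochondrial Ca2+ uniporter. Both KO groups came from mice with a floxed Mcu allele and Cx3cr1-cre, a Cre driven by the fractalkine receptor gene of monocytes and macrophages. Only WT cells received BAPTA-AM, and always with zymosan. The labels call the libraries biological replicates without tying them to mice, so p-values measure the spread between these libraries, which may be technical.

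Levels are given as normalized counts, that is counts scaled by library size and composition to a library of 20.6 M. Libraries held 14.4–24 M counts. Mcu itself stood at 134–172 in the untreated WT and 126–149 in the WT zymosan libraries, against 54.2–83.4 and 74.6–82.0 in the KO groups, a log2 difference of -1.14 ± 0.13 (SE, edgeR adjusted p = 0.000163) untreated, or -1.25 without replicate 4 of the untreated KO group, and -0.82 ± 0.14 (adjusted p = 9.61e-05) with zymosan. The summed level of each list of neutrophil, T cell, dendritic cell or mast cell markers was at most 235 normalized counts in any library, against 172272 or more for 7 macrophage markers. The B cell list reached 1142 in untreated WT, where Cd79b alone had a mean of 1075. The fibroblast list reached 1016 in KO with zymosan.

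Untreated KO replicate 4 stood apart from the other 3 libraries of its group. Its pairs with them had chi-square values of 209–217 per gene, against 1.6–6.2 in the 28 other pairs of replicates, and it raised the common biological coefficient of variation from 3.56% to 12.4%. Its summed macrophage markers were 172272, near the 187063–192588 of the KO zymosan libraries and below the WT libraries, which ran from 270463 to 314873. These markers did not fall as a set. Lyz2 (58188 against a mean of 167270 in replicates 1 to 3), Adgre1 (50754 against 87572) and Itgam (4901 against 15648) were lower. Cd68 (20010 against 5264), Fcgr1 (10677 against 2441), Csf1r (26175 against 17315) and Mertk (1566 against 783) were higher. The summed fibroblast markers of replicate 4 were 521, against 834–1016 in the KO zymosan libraries and no more than 103 in any WT library. Its B cell marker sum was 373, against 255–275 in the KO zymosan libraries and 627 or more in the WT libraries. KO zymosan means differed from WT zymosan means in the same directions. Lyz2 (66828 against 168667), Adgre1 (58539 against 101416) and Itgam (5668 against 17915) were lower. Cd68 (23876 against 6362), Fcgr1 (11805 against 4363), Csf1r (22257 against 11593) and Mertk (1566 against 1249) were higher. The comparison of KO with WT under zymosan thus holds both the genotype and this marker shift. The part of these marker shifts in the AP-1 values was not tested. Fold changes that rest on replicate 4 are given with and without it. Because these are bulk samples, fewer cells of a type and less RNA per cell cannot be told apart.

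Scaling also bears on direction. With composition scaling (TMM), the median log2 change over all tested genes was -0.04 for zymosan in WT and -0.06 in KO, whereas with library totals alone it was -0.54 and -0.58. Of all calls, 46.8% were higher for zymosan in WT with TMM and 18.6% with library totals, 46.5% and 19.0% in KO, 48.3% and 19.9% for zymosan with BAPTA-AM against untreated WT, and 50.4% and 74.9% for BAPTA-AM in WT with zymosan.

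The promoters of 3 members are shown because their genes behaved differently, Jun falling with BAPTA-AM, Fos keeping most of its rise and Maff having the steepest rise. Each holds the 250 bases before a RefSeq transcript start on GRCm38.p6, with matches in capitals. Jun lies on the minus strand at chr4:95052223-95052472, and its capitals mark TGACATCA, the variant AP-1 element of this gene, followed by a MEF2 site. Fos lies on the plus strand at chr12:85473640-85473889, with an NF-κB site and the TATA box marked. For Maff the second of 3 RefSeq starts is shown, on the plus strand at chr15:79347270-79347519, with a cAMP response element (CRE) marked.
Jun: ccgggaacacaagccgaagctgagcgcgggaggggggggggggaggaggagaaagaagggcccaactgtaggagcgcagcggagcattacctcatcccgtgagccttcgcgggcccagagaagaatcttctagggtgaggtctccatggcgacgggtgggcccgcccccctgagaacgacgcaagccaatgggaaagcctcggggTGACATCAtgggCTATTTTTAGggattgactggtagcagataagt
Fos: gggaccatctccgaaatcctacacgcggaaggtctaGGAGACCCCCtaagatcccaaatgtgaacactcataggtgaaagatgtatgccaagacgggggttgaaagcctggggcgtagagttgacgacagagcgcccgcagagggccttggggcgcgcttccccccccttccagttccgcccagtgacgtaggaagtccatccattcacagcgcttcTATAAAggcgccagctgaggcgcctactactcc
Maff: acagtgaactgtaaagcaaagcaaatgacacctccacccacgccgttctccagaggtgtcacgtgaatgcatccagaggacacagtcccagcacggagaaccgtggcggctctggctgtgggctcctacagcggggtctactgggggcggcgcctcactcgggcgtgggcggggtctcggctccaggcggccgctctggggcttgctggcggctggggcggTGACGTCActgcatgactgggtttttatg
The 250-base windows were searched on both strands for the AP-1 site TGANTCA, the CRE TGACGTCA, the variant TGACATCA, the TATA box TATAAA, and the CArG box, NF-κB and MEF2 sites. The CRE and TGACATCA differ by 1 base and neither contains TGANTCA. Of the 10 genes, 9 had an entry, and Fosl1 had none. Atf3 and Jun held a MEF2 site, at 22 to 13 and 33 to 24 bases before the start, as 2.92% of 32851 promoters did. Jun and the third Maff entry held TGACATCA, each 45 to 38 bases before the start (2.93% of promoters). Of the 9, Maff alone held the exact CRE (1.55%), in its second entry. Partial forms were not searched, such as TGACGTA in the Fos window and TACGTCA in that of Atf3. The other genes are thus not shown to lack a CRE. Fos, Fosb, Fosl2 and Maff held an NF-κB site (3.9%). Fos held the TATA box 33 to 28 bases before its start (12.4%). None of the 9 held TGANTCA (6.75%) or a CArG box (1.47%) in this window. These are letter matches, not measured binding.

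Zymosan raised nearly all of the 10 listed AP-1 genes in WT macrophages, a list chosen with earlier results of these data known. By edgeR's quasi-likelihood test 9 of the 10 were higher at an adjusted p under 0.05 and 0 were lower, where 32.4% of all tested genes were higher and 36.8% lower. All 10 had WT zymosan libraries wholly above the untreated ones, as did 33.1% of all genes. The median log2 change of the 10 was 2.04. The tenth gene was Jun, with an unadjusted p of 0.0356, and the DESeq2 Wald test called all 10. With library totals alone 8 were higher and 2 lower (Fosl2 and Jun), where 1834 of the 11707 tested genes were higher and 8018 lower.

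In KO macrophages zymosan raised 8 members and lowered 2, Fosl2 and Batf (34.3% of all genes were higher and 39.4% lower). Fitting only the 2 KO groups lost the calls of Batf (-0.63, adjusted p = 0.12) and Fosb (1.53, adjusted p = 0.0508), and library totals lost those of Jun (0.14, adjusted p = 0.254) and Jund (-0.07, adjusted p = 0.285). In the direct comparison of KO with WT under zymosan, Fosl1, Jun and Maff were higher and Fosl2, Jund and Batf lower. These were 3 and 3 of 10, against 31.8% and 30.3% of all genes, a share close to the background. Without untreated KO replicate 4, which is in neither group but sets the shared estimate of spread, Fos joined the higher and Fosb the lower genes, with 36.4% and 33.7% of all genes then called higher and lower.

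Loading WT cells with BAPTA-AM before zymosan lowered Jun and Fosl2 (2 of 10, with 6.33% of all genes lower) and raised 0 members (6.43% higher). DESeq2 also called 2 lower and 0 higher, and at an unadjusted p under 0.05 the counts were 2 lower and 1 higher. Without untreated KO replicate 4, the lower count rose to 6 and Jund became higher, while 16.5% and 15.3% of all genes were then lower and higher. Untreated KO and WT cells differed in 0 members by edgeR and by DESeq2, where 0.350% of all genes were called in either direction, and 3 members (Fos, Fosb and Atf3) had an unadjusted p under 0.05, at log2 differences of 0.79, 1.33 and 0.45. Without untreated KO replicate 4 these were -0.12 for Fos, 0.50 for Fosb and 0.01 for Atf3, with adjusted p of 0.456, 0.683 and 0.957.

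**Figure D1:**
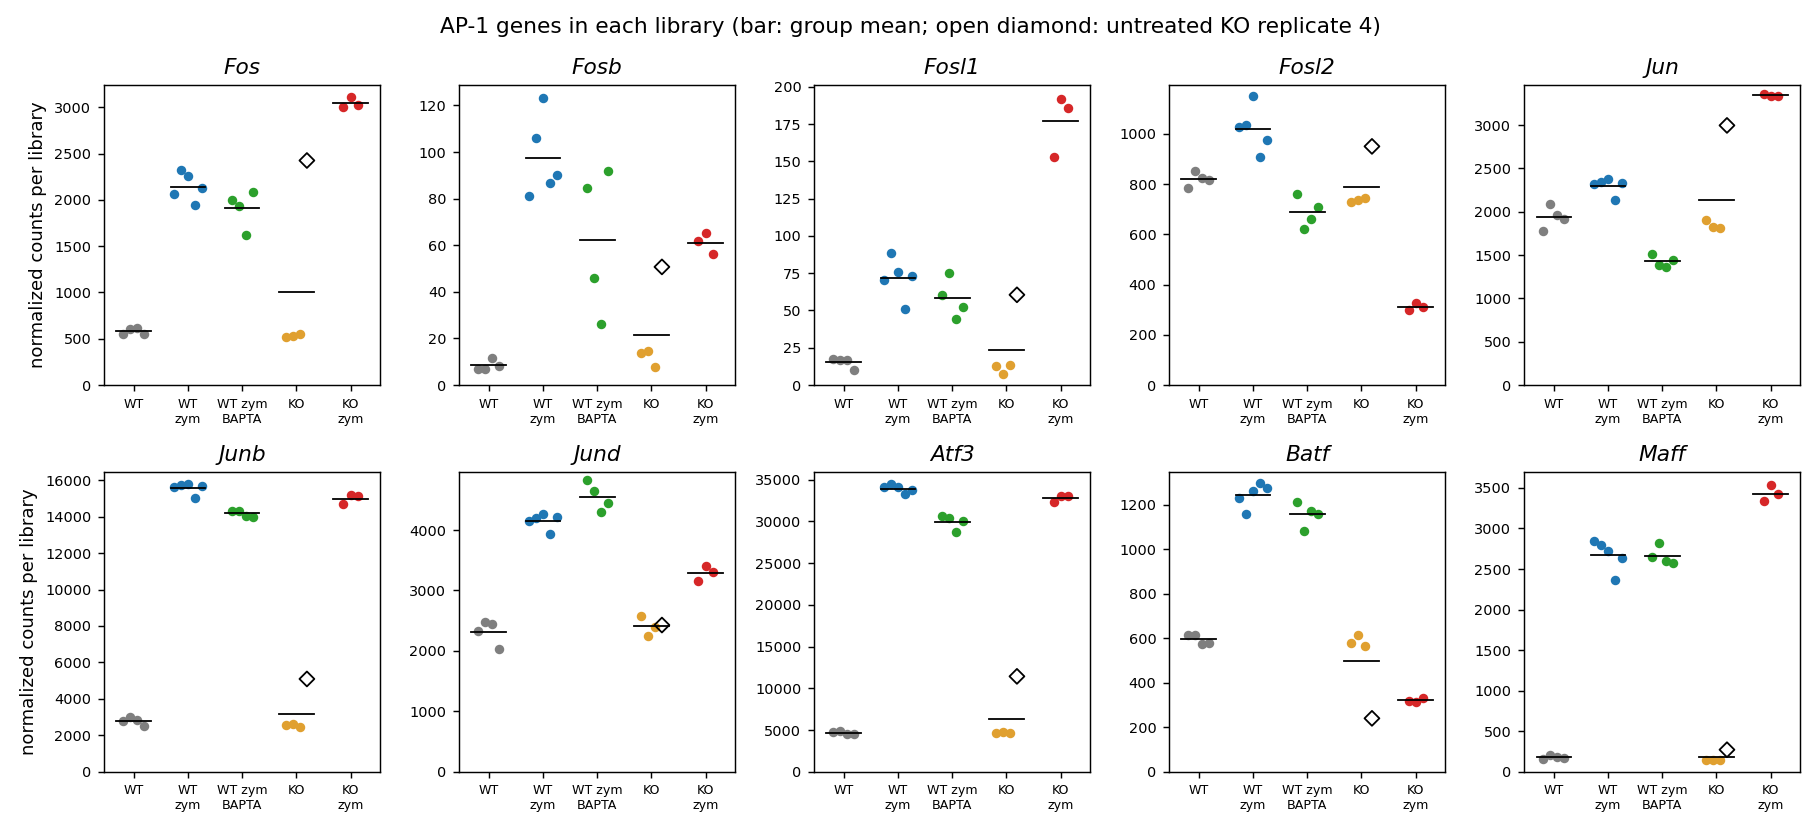
Normalized counts (y axis, from 0) of the 10 genes in each of the 20 libraries, by group along the x axis. Points are libraries, bars are group means, and the open diamond is untreated KO replicate 4, which lies apart from its group in 9 of the 10 genes. All 10 genes have WT zymosan points above the untreated WT points on this scale, while with library totals alone Fosl2 and Jun were lower with zymosan.

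Fos, the prototype of the family and the partner that JUN proteins prefer, stood at 556, 600, 619 and 546 normalized counts in untreated WT. It reached 2059, 2321, 2259, 1943 and 2130 with zymosan, and 1998, 1933, 1624 and 2081 with BAPTA-AM and zymosan. The zymosan libraries were all far above the untreated ones, while the sets with and without BAPTA-AM overlapped. Zymosan raised Fos in WT by 1.88 ± 0.35 on the log2 scale (edgeR adjusted p = 9.22e-05). With BAPTA-AM the log2 difference from zymosan alone was -0.17 ± 0.33 (adjusted p = 0.832; 0.00942 without untreated KO replicate 4), and the mean rise over untreated was 85.1% of that without the chelator. Untreated KO replicates 1 to 4 held 524, 533, 547 and 2426, and the KO zymosan libraries 3001, 3113 and 3029. The KO zymosan set was thus the highest of the 5 groups and overlapped no other. Its log2 difference from WT zymosan was 0.51 ± 0.35 (adjusted p = 0.215), and without untreated KO replicate 4 the same 0.51 had an adjusted p of 3.08e-11.

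The zymosan response of Fos in KO changed with that library. It was 1.60 ± 0.37 (adjusted p = 0.000797) with it and 2.51 (adjusted p = 3.32e-30) without it. The difference of the KO and WT responses went from -0.28 ± 0.50 (adjusted p = 0.688) to 0.63 (adjusted p = 7.04e-08), a change of sign. Replicate 4 alone had 4.18 times the untreated WT mean of Fos with no zymosan given.

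Fosb, a close paralogue of Fos, had the lowest level per kilobase of the 10 in every group. Untreated WT libraries held 7.03, 6.99, 11.5 and 8.09 normalized counts, and WT zymosan libraries 81.0, 106, 123, 86.9 and 90.3. The rise of 3.52 ± 0.47 (adjusted p = 1.92e-06) was second only to Maff among the 10. The BAPTA-AM libraries were widely spread, at 84.7, 46.1, 26.2 and 91.7, of which replicates 1 and 4 lay within the range of zymosan alone and replicates 2 and 3 below it. Their log2 difference of -0.63 ± 0.36 had an adjusted p of 0.305 (0.0125 without untreated KO replicate 4). KO zymosan libraries held 61.9, 65.2 and 56.4, all below the WT zymosan libraries. That difference was -0.67 ± 0.40 (adjusted p = 0.154), and -0.68 without untreated KO replicate 4 (adjusted p = 0.00536). Untreated KO held 13.7, 14.7, 7.53 and 50.7. The smaller rise in KO gave a difference of responses of -2.00 ± 0.67 (adjusted p = 0.0277), or -1.18 without replicate 4 (adjusted p = 0.0387). Leaving out untreated WT replicate 1, untreated WT replicate 2 or KO zymosan column 5 took that adjusted p to 0.0534, 0.0539 and 0.0554.

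Fosl1, which encodes FRA-1, was low in untreated WT, with 17.6, 16.6, 16.8 and 10.4 normalized counts, and rose to 70.4, 88.5, 75.7, 50.8 and 73.1 with zymosan. It held 60.5, 75.4, 44.5 and 52.1 with BAPTA-AM, a set that overlapped zymosan alone. KO zymosan libraries, at 153, 192 and 186, lay above every other library of the series. The WT rise was 2.20 ± 0.42 (adjusted p = 0.000139), the BAPTA-AM difference -0.30 ± 0.36 (adjusted p = 0.693) and the KO excess over WT with zymosan 1.30 ± 0.36 (adjusted p = 0.00439), the largest excess among the 10. Untreated KO held 13, 7.33, 13.5 and 60.5, so that replicate 4 again reached the zymosan range of WT. The KO response was 2.93 ± 0.41 with replicate 4 and 3.97 without it, and the difference of responses went from 0.73 ± 0.61 (adjusted p = 0.366) to 1.77 (adjusted p = 3.65e-05).

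Fosl2 encodes FRA-2. Untreated WT held 786, 854, 823 and 816 normalized counts and WT zymosan 1026, 1036, 1152, 908 and 977, a small separation with no overlap. The rise was 0.31 ± 0.08 (adjusted p = 0.00183), but with library totals alone the value was -0.18 (adjusted p = 0.0304), against a median of -0.54 over all genes. With BAPTA-AM the libraries fell to 761, 622, 660 and 707, below both the zymosan and the untreated WT libraries. The drop against zymosan alone was -0.57 ± 0.08 (adjusted p = 0.000105) and against untreated WT -0.25 ± 0.09 (adjusted p = 0.0136), the latter weakening to -0.21 (adjusted p = 0.0529) without BAPTA-AM replicate 2.

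KO zymosan libraries held the lowest Fosl2 of the series, at 299, 325 and 311 normalized counts. Untreated KO had 728, 736, 743 and 950, so that replicate 4 was here on the opposite side from the zymosan libraries. Zymosan therefore lowered Fosl2 in KO, by -1.34 ± 0.10 on the log2 scale (adjusted p = 5.38e-10) or -1.24 without replicate 4. Against WT with zymosan the difference was -1.71 ± 0.10 (adjusted p = 1.41e-10), and the difference of responses was -1.66 ± 0.13 (adjusted p = 3.34e-08), or -1.55 without replicate 4.

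Jun, the founding member and the strongest transactivator of its family, had a high level before zymosan and a small response. Untreated WT held 1781, 2089, 1967 and 1918 normalized counts, WT zymosan 2324, 2346, 2375, 2140 and 2328, and BAPTA-AM with zymosan 1514, 1384, 1358 and 1449. The 3 WT groups did not overlap, and the BAPTA-AM libraries were the lowest of the series. The zymosan difference in WT was 0.25 ± 0.11 (adjusted p = 0.0515), with adjusted p from 3.72e-07 to 0.137 over the alternatives, and with library totals alone it was -0.24 (adjusted p = 0.0261). The BAPTA-AM difference was -0.69 ± 0.11 (adjusted p = 0.000337), and zymosan with BAPTA-AM stood at -0.44 ± 0.12 (adjusted p = 0.00243) against untreated WT. The promoter of Jun is the one shown above with the variant AP-1 element and the MEF2 site.

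KO zymosan libraries held the highest Jun of the series, at 3364, 3341 and 3331. Untreated KO had 1901, 1824, 1812 and 2997, with replicate 4 below them. The excess over WT with zymosan was 0.54 ± 0.12 (adjusted p = 0.00066). The KO response was 0.65 ± 0.12 (adjusted p = 0.000111), or 0.86 without replicate 4, and with library totals it was 0.14 (adjusted p = 0.254). The difference of responses was 0.40 ± 0.16 (adjusted p = 0.0648), and 0.61 (adjusted p = 2.1e-11) without replicate 4.

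Junb, a JUN protein with weaker activation that also drives genes of alternative activation and of the NLRP3 pathway, rose strongly. Untreated WT held 2788, 2987, 2864 and 2497 normalized counts and WT zymosan 15635, 15750, 15799, 14998 and 15674, while BAPTA-AM with zymosan held 14321, 14337, 14055 and 14004. The groups with and without BAPTA-AM did not overlap, but lay close beside the size of the response. The rise was 2.48 ± 0.16 (adjusted p = 7.48e-11) and the BAPTA-AM difference -0.14 ± 0.15 (adjusted p = 0.657; 0.000693 without untreated KO replicate 4). KO zymosan libraries, at 14670, 15170 and 15126, overlapped the WT ones, and their log2 difference was -0.06 ± 0.16 (adjusted p = 0.787). Untreated KO held 2590, 2597, 2433 and 5094. Without replicate 4 the untreated KO level of Junb was lower than WT by -0.14 (adjusted p = 0.0429), where 1.83% of all genes were lower.

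Jund, the JUN member that most cells express at rest, was the only 1 of the 10 whose mean was highest with BAPTA-AM. Untreated WT held 2328, 2481, 2441 and 2034 normalized counts, WT zymosan 4145, 4202, 4265, 3942 and 4220, and BAPTA-AM with zymosan 4826, 4642, 4295 and 4449. The BAPTA-AM libraries lay just above those with zymosan alone, with a log2 difference of 0.13 ± 0.05 (adjusted p = 0.13; 0.0126 without untreated KO replicate 4). The WT rise was 0.84 ± 0.06 (adjusted p = 9.52e-11). KO zymosan libraries, at 3162, 3412 and 3306, were below all WT zymosan libraries, by -0.34 ± 0.06 (adjusted p = 0.000125). Untreated KO held 2573, 2252, 2389 and 2428, and here replicate 4 did not stand apart. The KO response was 0.45 ± 0.06 (adjusted p = 3.32e-06; 0.46 without replicate 4) and the difference of responses -0.39 ± 0.08 (adjusted p = 0.00188; -0.38 without replicate 4), but with library totals alone the KO response was -0.07 (adjusted p = 0.285).

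Atf3, a stress-induced factor that restrains Toll-like receptor output, was the most abundant member in counts and per length. Untreated WT held 4728, 4861, 4560 and 4494 normalized counts, WT zymosan 34118, 34454, 34097, 33231 and 33743, and BAPTA-AM with zymosan 30696, 30437, 28692 and 30076. The 3 sets were separate, and 86.5% of the mean rise was present with BAPTA-AM. The rise was 2.86 ± 0.21 (adjusted p = 3.9e-10) and the BAPTA-AM difference -0.18 ± 0.19 (adjusted p = 0.638; 3.84e-07 without untreated KO replicate 4). KO zymosan libraries held 32345, 33091 and 32992, just below the WT ones, with a log2 difference of -0.05 ± 0.21 (adjusted p = 0.854). Untreated KO held 4628, 4792, 4639 and 11432. The KO response was 2.36 ± 0.22 with replicate 4 and 2.81 without it.

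Batf, which with JUN proteins and IRF4 or IRF8 opens lymphoid and dendritic cell genes, had the largest log2 difference of the 10 between KO and WT with zymosan. Untreated WT held 614, 614, 574 and 578 normalized counts, WT zymosan 1230, 1158, 1262, 1295 and 1276, and BAPTA-AM with zymosan 1213, 1080, 1172 and 1157. Zymosan raised it in WT by 1.06 ± 0.16 (adjusted p = 1.2e-05), and the BAPTA-AM libraries overlapped those with zymosan alone (log2 difference -0.11 ± 0.16, adjusted p = 0.763). KO zymosan libraries held 316, 315 and 331, below every WT library. The difference from WT zymosan was -1.96 ± 0.20 (adjusted p = 2.34e-07).

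Untreated KO replicates 1 to 3 had 578, 613 and 565 normalized counts of Batf, within or next to the untreated WT range, and replicate 4 had 240, below even the KO zymosan libraries. The KO response was -0.64 ± 0.20 (adjusted p = 0.00688) with replicate 4, -0.87 (adjusted p = 3.43e-15) without it and -0.63 (adjusted p = 0.12) in a fit of only the 2 KO groups, and the 2 KO groups overlapped only through that library. The difference of responses was -1.70 ± 0.26 (adjusted p = 8.52e-05), or -1.93 without replicate 4. Batf lies on chromosome 12 with Fos and Jdp2, which encodes a repressive AP-1 partner, and the span of the 3 genes on the plus strand was 235.2 kb. Jdp2, named here for its position, had means of 2686 in WT and 2921 in KO with zymosan (log2 difference 0.12 ± 0.07, adjusted p = 0.148).

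Maff, a small MAF protein without an activation domain, had the steepest rise. Untreated WT held 163, 208, 177 and 173 normalized counts, WT zymosan 2844, 2796, 2722, 2361 and 2636, and BAPTA-AM with zymosan 2648, 2816, 2595 and 2572. The rise was 3.88 ± 0.14 (adjusted p = 1.4e-14), a 14.8-fold change, and 99.4% of the mean rise was present with BAPTA-AM, whose log2 difference was -0.01 ± 0.12 (adjusted p = 0.982). KO zymosan libraries, at 3334, 3531 and 3421, were above every WT library. That excess was 0.36 ± 0.13 (adjusted p = 0.0211), and it went to adjusted p of 0.0507, 0.067 and 0.0531 without WT zymosan replicate 4, KO zymosan column 4 or KO zymosan column 5. Untreated KO held 151, 150, 148 and 272, and the KO response was 4.25 ± 0.15 with replicate 4 and 4.52 without it.

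**Figure D2:**
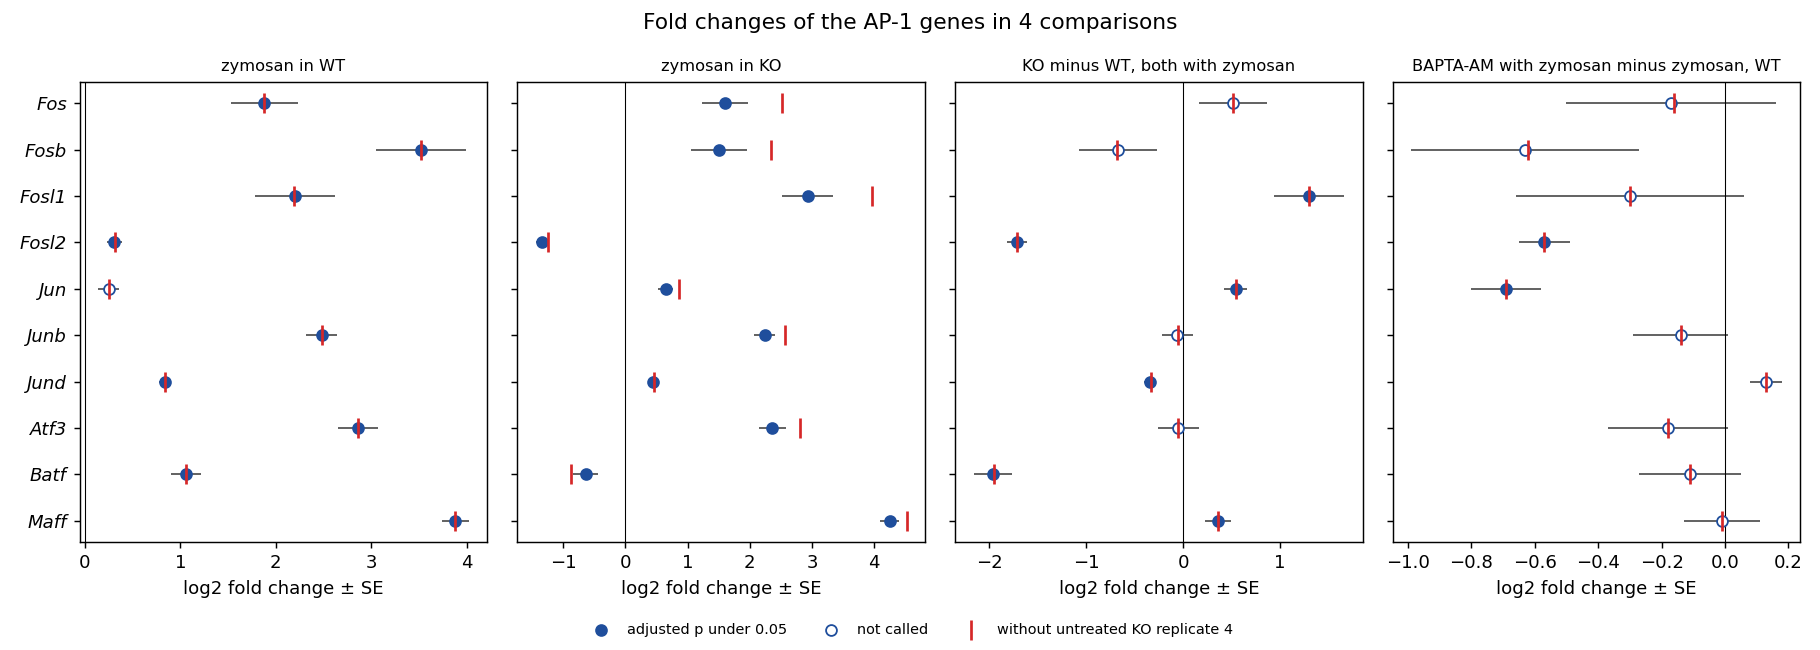
Log2 fold changes (x axis) with their SE for the 10 genes (y axis) in 4 comparisons, from the edgeR fit of all 20 libraries. Filled circles have an adjusted p under 0.05, open circles do not, and red ticks are the values without untreated KO replicate 4. Fosl2 and Batf are raised in WT and lowered in KO, and Jun and Fosl2 are the filled circles under BAPTA-AM. With library totals alone Fosl2 and Jun turn negative for zymosan in WT and Jund for zymosan in KO.

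The zymosan response in KO depended on which untreated KO libraries it was set against. Against replicates 1 to 3, the KO zymosan means were 5.70-fold (Fos), 15.7-fold (Fosl1), 1.81-fold (Jun) and 5.90-fold (Junb) of the untreated mean. Against replicate 4 alone they were 1.26-fold, 2.93-fold, 1.12-fold and 2.94-fold. Fosl2 had ratios of 0.424 and 0.328 and so was lower with zymosan on either base. Batf had ratios of 0.548 against replicates 1 to 3 and 1.34 against replicate 4, opposite directions. Maff, at 22.9-fold and 12.6-fold, rose on both. Replicate 4 is a single library, so these last ratios have no replicate check.

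**Figure D3:**
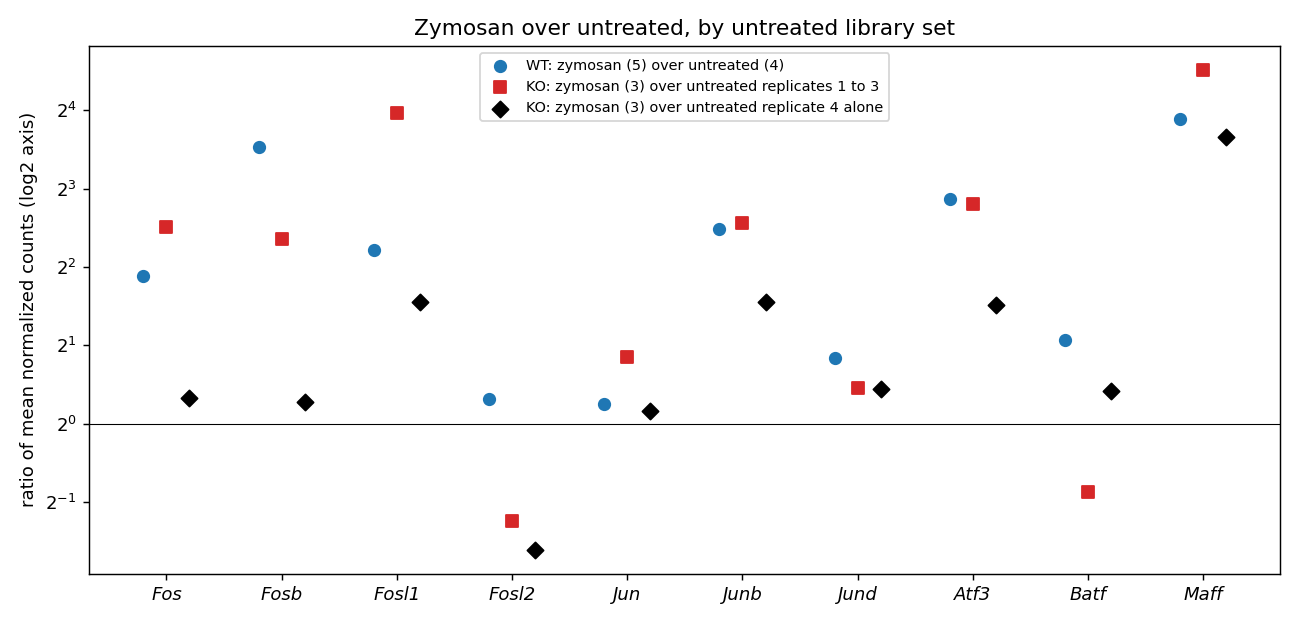
Ratio of the mean normalized count with zymosan to that without it (y axis, log2 scale) for the 10 genes (x axis). Circles are WT, squares are KO against untreated replicates 1 to 3 and diamonds are KO against untreated replicate 4 alone. Batf lies above 1 in WT and against replicate 4, at 2.09 and 1.34, and below 1 against replicates 1 to 3, at 0.548, and Fosl2 lies below 1 in KO on both bases.

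The difference between the KO and WT responses was tested directly for each member. At an adjusted p under 0.05 it was below 0 for 4 of the 10, Fosb, Fosl2, Jund and Batf, and above 0 for 0. Of all genes, 20% were called lower and 15.2% higher. At an unadjusted p under 0.05 edgeR had 1 above 0, and DESeq2 called 1, in both cases Jun. Without untreated KO replicate 4, Fos, Fosl1, Jun and Maff were called above 0 (4 of 10), with 31.0% of all genes higher and 29.3% lower. Fosl2 and Batf were called higher in WT and lower in KO. With BAPTA-AM, 8 of the 10 remained above untreated WT (31.9% of all genes were higher) and Jun and Fosl2 were below it (34.2% lower). The comparisons of KO and of BAPTA-AM with WT zymosan share the same 5 WT libraries. Side by side, Jun was at 0.54 in KO and -0.69 with BAPTA-AM, and Fosl2 at -1.71 and -0.57.

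Per kilobase of exon, the summed level of the 10 genes was 6206 ± 319 (SD, n = 4) in untreated WT, 28714 ± 556 (n = 5) with zymosan, 26023 ± 712 (n = 4) with BAPTA-AM and zymosan, and 27744 ± 445 (n = 3) in KO with zymosan. Untreated KO was at 7404 ± 2639 (n = 4), the spread coming from replicate 4 at 11360. The WT zymosan libraries started at 27770 and the BAPTA-AM ones ended at 26697, so those ranges did not overlap. KO zymosan ran from 27244 to 28096 and overlapped WT zymosan.

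The mix within that sum shifted. Atf3 made up 34.9% ± 1.04 (SD, n = 4) of the per-kilobase sum in untreated WT and 54.9% ± 0.437 (n = 5) with zymosan, and Junb 19.5% and 23.6%. Jund fell from 22.4% to 8.67%, Jun from 9.8% to 2.51% and Batf from 6.83% to 3.08%. In KO with zymosan Atf3 stood at 54.9% and Junb at 23.5%, as in WT, while Batf was at 0.821% ± 0.0242 (n = 3) and Maff at 4.76% against 3.58%.

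Among the FOS genes, Fos itself made up 72.5% of the per-kilobase level in untreated WT, 85.4% with zymosan, 88.1% with BAPTA-AM and zymosan, and 91% in KO with zymosan. Fosl2 held 24.9%, 9.87%, 7.75% and 2.26% in the same order. Fosl1 held 3.28% ± 0.423 (n = 5) in WT and 6.1% ± 0.603 (n = 3) in KO with zymosan, with no overlap. Among the JUN genes, Jund was the largest share in untreated WT, at 43.3%, and Junb with zymosan, at 67.8%. Jun went from 19% to 7.23% with zymosan, to 4.79% with BAPTA-AM and zymosan, and to 11% in KO with zymosan. Those 3 zymosan groups did not overlap, with ranges of 7.03–7.32%, 4.59–4.95% and 10.8–11.3%.

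**Figure D4:**
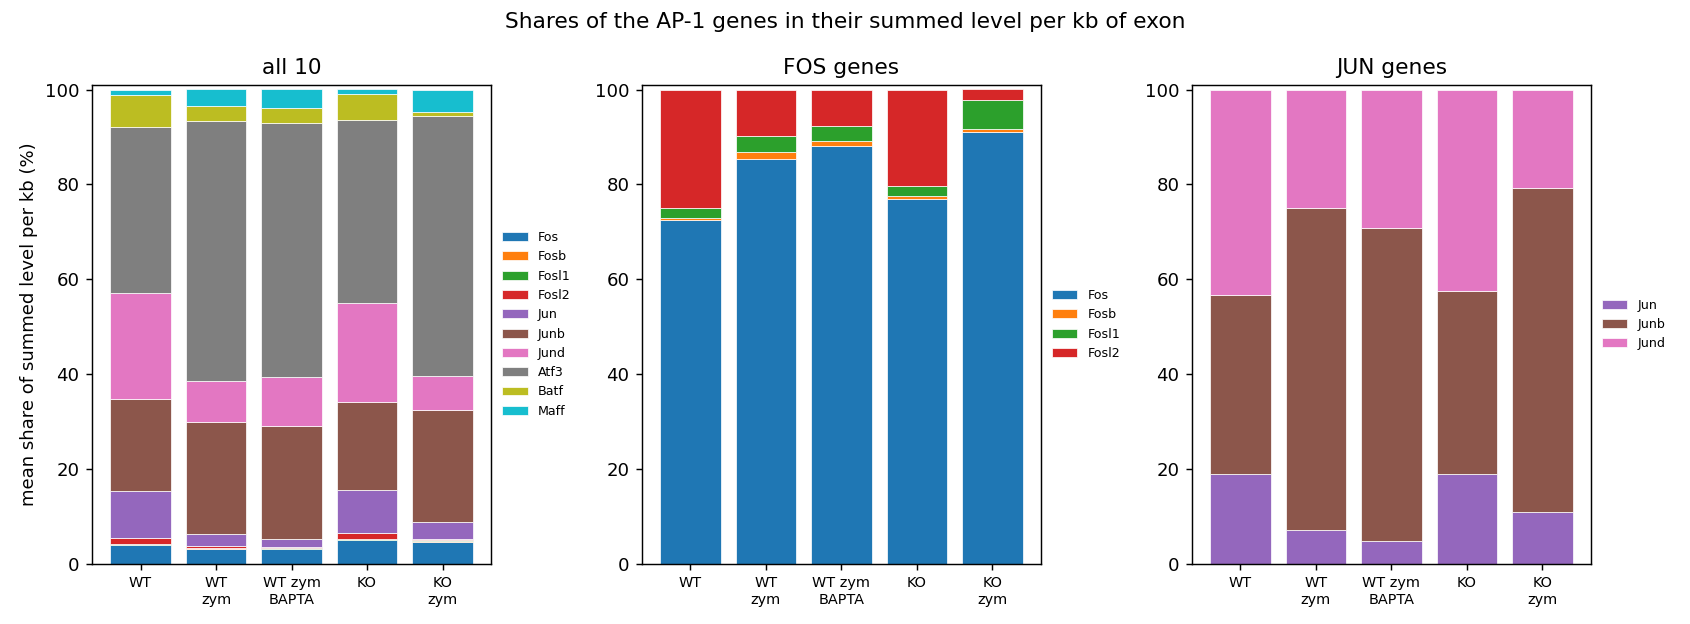
Mean share (y axis, percent) of each gene in the summed level per kilobase of exon, by group (x axis), for all 10 genes, the FOS genes and the JUN genes. Atf3 grows from 34.9% to 54.9% of the total with zymosan in WT, Fosl2 shrinks to 2.26% of the FOS genes in KO with zymosan, and Junb replaces Jund as the largest JUN share. The untreated KO bars include replicate 4.

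The order of the groups differed between genes. For Fos, Fosl1, Jun and Maff, KO zymosan was highest and did not overlap the next group, WT zymosan. For Fosb, Fosl2, Junb, Atf3 and Batf, WT zymosan was highest. The next group overlapped it for Fosb, Junb and Batf and not for Fosl2 and Atf3. For Jund the BAPTA-AM group was highest and did not overlap the next. At the low end, untreated WT and untreated KO overlapped in all 10 genes, for Fosl2 and Maff only through replicate 4. Replicates 1 to 3 ran from 728 to 743 for Fosl2, below the lowest untreated WT library at 786. For Maff they ran from 148 to 151, below 163. Without replicate 4 neither gene was called (edgeR adjusted p = 0.164 and 0.108). KO zymosan was the lowest group for Fosl2, clear of the next, and for Batf, where it overlapped untreated KO through replicate 4. For Jun the lowest group was BAPTA-AM with zymosan, clear of untreated WT. The share of all genes with such overlap is not given for these pairs of groups, so the order describes the members only.

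The members fell in step to different degrees over the 20 libraries, as a description of points that share groups and scaling. The 20 libraries include untreated KO replicate 4, and r without it is not given. Pearson's r of log2 CPM was 0.99 between Atf3 and Maff and 0.96 between Fos and Fosl1. Fosl2 had r of -0.31 with Fos and 0.60 with Batf, and Jun -0.62 with Batf and 0.21 with Junb. The tested genes most like Atf3 were the interferon-induced Isg15 (r = 0.999) and the MAP kinase phosphatase gene Dusp1 (0.999). Those most like Maff were Nfkbia, Gadd45b and Ripk2 (each 0.998), of which Nfkbia encodes the inhibitor of NF-κB. Fos was closest to Irf7 (0.992), Jun to Dab2 (0.974), Fosl2 to Il4ra (0.957) and Batf to Slamf9 (0.994). For Batf, second was Scarf2 (0.990), with means of 1020 in WT and 64.0 in KO with zymosan. Fosb and Fosl1 were closest to Lrp10 (0.944) and App (0.982), and Junb and Jund to Ifi207 (0.998) and Dtnbp1 (0.988).

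Other basic leucine zipper genes that share dimers or sites with AP-1 are described next, with the shares of all genes called in each comparison as given above (32.4% higher and 36.8% lower for zymosan in WT, 31.8% and 30.3% for KO against WT with zymosan, 6.43% and 6.33% for BAPTA-AM). Of 19 tested, zymosan in WT raised 9 and lowered 5, with a median log2 change of 0.12 against -0.04 for all genes. Batf2 rose by 5.05 ± 0.16 (adjusted p = 1.03e-15) and Mafk, a small MAF like Maff, by 3.52 ± 0.13 (adjusted p = 9.81e-15). Maf, a large MAF factor, fell by 2.43 (SE 0.08, adjusted p = 1.33e-15). Between KO and WT with zymosan, 6 were higher and 4 lower. Without untreated KO replicate 4 the counts were 13 and 5, beside 36.4% and 33.7% of all genes. Batf3, a BATF family member required by cross-presenting dendritic cells, was lower by -2.58 ± 0.42 (adjusted p = 4.67e-05), at 48.0 in KO and 288 in WT, and in untreated KO replicate 4 it was at 85.9 against 518 in replicates 1 to 3. Bach1, a heme-sensing repressor, was lower by -0.57 ± 0.11 (adjusted p = 0.000311). Ddit3, the stress factor CHOP, was higher by 1.32 ± 0.31 (adjusted p = 0.00123), and it was at 1875 in replicate 4 against 522 in replicates 1 to 3. BAPTA-AM raised 1, Nfe2l2, and lowered 2, Batf2 and Maf. Without untreated KO replicate 4 it raised 5 and lowered 7, beside 15.3% and 16.5% of all genes.

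Among 27 tested genes of the MAP kinase cascade that feeds AP-1, zymosan in WT raised 12 and lowered 9, beside 32.4% and 36.8% of all genes. Mapkapk2, the kinase downstream of p38, rose by 2.31 ± 0.05 (adjusted p = 1.35e-18) and Map2k4, which activates JNK, by 1.73 ± 0.05 (adjusted p = 6.15e-17), while Map3k1 fell by 2.24 (SE 0.06). In KO against WT with zymosan, 11 were higher and 10 lower, beside 31.8% and 30.3% of all genes, with Map3k5 (ASK1) up by 1.03 ± 0.07 (adjusted p = 3.05e-09) and Map2k3 down by -0.51 ± 0.07 (adjusted p = 1.57e-05). With BAPTA-AM 5 were higher and 5 lower, beside 6.43% and 6.33% of all genes. Without untreated KO replicate 4 the counts were 8 and 8, beside 15.3% and 16.5%. Mapk8, which encodes the JUN kinase JNK1, was higher by 0.38 ± 0.05 (adjusted p = 6.99e-05), at 489 against 375, where Jun stood at 1426 and 2302.

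The 18 tested regulators of Fos and Jun transcription included 3 that rose and 14 that fell with zymosan in WT, beside 32.4% and 36.8% of all genes, with a median of -0.66. Hdac7 and Hdac5, class II deacetylases that restrain MEF2, fell by 2.49 and 1.75 (SE 0.13 and 0.06), and Elk4, a partner of SRF, rose by 1.55 ± 0.04 (adjusted p = 9.38e-17). In KO with zymosan 5 were higher and 5 lower than in WT, close to the 31.8% and 30.3% of all genes. Without untreated KO replicate 4 the counts were 8 and 6, beside 36.4% and 33.7%. In KO, Elk3 was up by 1.29 ± 0.08 (adjusted p = 1.11e-09) and Mef2c up by 0.69 ± 0.10 (adjusted p = 1.87e-05). BAPTA-AM lowered Elk3 by -0.55 ± 0.08 (adjusted p = 0.00017) and Ep300, a coactivator, and raised Srf by 0.32 ± 0.07 (adjusted p = 0.00656), Mkl2 and Hdac5, the last named after its value was seen. Of 8 tested ubiquitin ligases and cofactors of JUN, Itch was higher in KO than in WT with zymosan by 0.60 ± 0.07 (adjusted p = 1.68e-06) and Fbxw7 lower by -0.40 ± 0.10 (adjusted p = 0.00262). Both encode ligases that mark JUN for degradation. In all 5 of the 8 were higher and 1 lower, beside 31.8% and 30.3% of all genes.

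Of 22 other immediate-early genes, zymosan in WT raised 15 and lowered 6, beside 32.4% and 36.8% of all genes, with a median of 1.32. Dusp2 rose by 5.94 ± 0.09 (adjusted p = 4.78e-20) and Nr4a3 by 5.03 ± 0.25 (adjusted p = 1.44e-12), while Myc and Klf2 fell by 1.37 and 1.23 (SE 0.13 and 0.20). KO exceeded WT with zymosan in 8 and was below it in 6, close to the 31.8% and 30.3% of all genes. Klf2 was higher by 1.84 ± 0.21 (adjusted p = 1.23e-06) and Klf10 lower by -1.97 ± 0.08 (adjusted p = 2.4e-12). BAPTA-AM raised 2, Klf2 and Klf10, and lowered 5, beside 6.43% and 6.33% of all genes. Nr4a3 was lower by -0.92 ± 0.19 (adjusted p = 0.00282) and Nfil3 by -0.80 ± 0.12 (adjusted p = 0.000262). Without untreated KO replicate 4, 13 were lower, with 16.5% of all genes then lower.

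Of 18 tested textbook AP-1 target genes, zymosan in WT raised 13 and lowered 3, beside 32.4% and 36.8% of all genes, with a median log2 change of 1.79. Ptgs2, the inducible cyclooxygenase, rose by 8.28 ± 0.36 (adjusted p = 1.66e-13) and Timp1 by 5.65 ± 0.43 (adjusted p = 7.66e-10). The cyclin gene Ccnd1 and Vegfa fell by 2.44 and 1.48 (SE 0.18 and 0.10). In KO against WT with zymosan 11 were higher and 4 lower, beside 31.8% and 30.3% of all genes, with a median of 1.21 against 0.02 for all genes. Ccnd1 was higher by 2.97 ± 0.19 (adjusted p = 9.42e-10) and the urokinase gene Plau by 2.81 ± 0.29 (adjusted p = 4.25e-07), and untreated KO replicate 4 was also high in both, at 19283 and 5844. Timp1 and Sphk1 were lower by -1.79 ± 0.34 and -1.66 ± 0.30. With BAPTA-AM 6 were lower and 1 higher, beside 6.33% and 6.43% of all genes, with a median of -0.43. Without untreated KO replicate 4, 15 were lower, beside 16.5% of all genes. Timp1 was lower by -1.65 ± 0.30 (adjusted p = 0.000976), at 88.0 against 276, and the collagenase gene Mmp13 by -1.22 ± 0.32 (adjusted p = 0.0155), at 1629 against 3793. Counts for these lists rest on the same fits as the members, and no test of a list as a whole was made.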

How the data were processed

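RNA-seq reads of 20 BMDM libraries were checked with FastQC and MultiQC, trimmed with cutadapt, mapped with STAR to mm10 and counted per gene with HTSeq by the authors, who deposited a table of raw counts. Versions are not given in the sources used here. Genes were tested with edgeR 4.0.16 (quasi-likelihood F test, filterByExpr, TMM) in R 4.3.3, with all 20 libraries and 1 coefficient per group in 1 fit, and p-values were adjusted over 11707 genes by Benjamini-Hochberg (threshold 0.05). Alternatives were DESeq2 1.42.0, other scalings and filters, and leaving out each library. The code was tested on simulated data. Members and lists were chosen with earlier results of these data known. All members were named, and of each other list at most the 2 called genes with the largest rise and the 2 with the largest fall among those with at least 10 CPM, while genes given for likeness are the nearest by Pearson's r of log2 CPM (prior count 2). Exon lengths came from GENCODE M21 (union of exons) and promoters from RefSeq (GRCm38.p6). The 3 KO zymosan columns are numbered 3 to 5 while the labels number 1 to 3, so they are named by column. A result of 1 list gene is not reported here.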

Additional observations from a re-analysis of the deposited data

Results flagged for a closer look

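In 12 of the 40 gene and group pairs with 4 or 5 libraries, 1 library lay far from the others by Dixon's gap test, which chance alone gives in about 1 of 20 groups. Of these, 9 were untreated KO replicate 4, at normalized counts of 2426 for Fos, 50.7 for Fosb, 60.5 for Fosl1, 950 for Fosl2, 2997 for Jun, 5094 for Junb, 11432 for Atf3, 240 for Batf and 272 for Maff. Jund was the exception, at 2428 in that library. The remaining 3 were low values, Fosl1 at 10.4 in untreated WT replicate 4, and Jun at 2140 and Junb at 14998 in WT zymosan replicate 4. The genes share the same libraries, so the 40 pairs are not independent and their count cannot be weighed against 1 of 20.

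The zymosan response differed between KO and WT, by edgeR's test of the difference itself, for Fosb (-2.00 on the log2 scale), Fosl2 (-1.66), Jund (-0.39) and Batf (-1.70).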

How the results depend on the processing

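Counts of called members moved as follows. With library totals alone, 2 were lower for zymosan in WT, 6 rather than 8 were higher for zymosan in KO, and 1 was higher for BAPTA-AM and 1 for the difference of responses (also 1 with the DESeq2 Wald test). Of the 11707 tested genes, library totals called 8018 lower for zymosan in WT and 1878 higher for zymosan in KO. They called 1566 higher for BAPTA-AM and 1752 higher for the difference of responses. Fitting only the groups compared gave 7 higher and 1 lower for zymosan in KO (Fosb and Batf were lost), 6 lower for KO against WT with zymosan, and 1 higher and 6 lower for BAPTA-AM. Shares of all genes are not given for the fits of only the groups compared, the DESeq2 Wald test or counts at an unadjusted p. Nor are they given for leaving out libraries other than untreated KO replicate 4. Such counts describe the members only and cannot be weighed against a background. Leaving out each library gave 9 to 10 higher for zymosan in WT, 2 to 4 higher and 3 to 4 lower for KO against WT with zymosan, 0 to 1 higher and 2 to 6 lower for BAPTA-AM, 0 to 1 lower for KO against WT untreated, 1 to 2 lower for zymosan with BAPTA-AM against untreated WT, and 0 to 4 higher and 3 to 4 lower for the difference of responses. The upper ends for BAPTA-AM and for higher differences came without untreated KO replicate 4. Log2 values that changed sign with library totals were Fosl2 (-0.18) and Jun (-0.24) for zymosan in WT, Jund (-0.07) for zymosan in KO and Maff (0.05) for BAPTA-AM. Leaving out libraries moved Maff for BAPTA-AM from -0.05 to 0.02 (0.01 in 2 further cases). For KO against WT untreated it moved Fos from -0.12 to 1.01, Fosl1 from -0.47 to 0.88, Jun from -0.07 to 0.21, Junb from -0.14 to 0.30 and Maff from -0.27 to 0.07. For the difference of responses it moved Fos from -0.50 to 0.63 and Junb from -0.35 to 0.08. All but Maff changed sign without untreated KO replicate 4, and the cause was not tested. Same-numbered libraries did not deviate together (24 pairs, r from -0.05 to 0.06), and a replicate block changed the call or direction of none of 40 member results. Fosl2 with BAPTA-AM and zymosan against untreated WT, for example, was at -0.26 with the block. With at least 10 counts in every library, Fosb and Fosl1 could not be tested. Fosb and Fosl1 have the fewest counts, which limits their precision.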
